A study of Mus musculus with 10 samples.

Results

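The genes described here are the organic anion, cation and ABC transporters of mouse liver, chosen by name alone as the protein-coding genes whose symbols begin with Slco, Slc10a, Slc22a, Slc47a, Abca, Abcb, Abcc or Abcg. The rule gave 90 genes of the 41388 genes in the deposited tables, made up of 14 Slco, 7 Slc10a, 25 Slc22a, 2 Slc47a, 16 Abca, 10 Abcb, 10 Abcc and 6 Abcg genes. Their RNA was measured by RNA-seq in whole liver, with 1 library per mouse, in 2 WT Refed, 3 WT Fasting and 5 NAMPT LKO Fasting mice. WT mice are NAMPT fl/fl, with recombination sites in an intact Nampt gene, and NAMPT LKO mice are littermates in which Albumin-cre, active in hepatocytes, removes Nampt, the rate-limiting enzyme of NAD+ salvage. All mice carry the strain label C57B/6J and the age of 12 weeks. The sample labels give the fasting mice 24 h without food and the refed mice 22 h without food and then 2 h of refeeding, whereas the study's text gives a 12 h fast and random-fed controls, so the feeding history of the WT Refed mice is uncertain. The comparisons ask how these transporters differ with feeding state and whether they differ in fasting livers that lack hepatocyte Nampt.

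Hepatocytes take up bile salts, drugs, cations and carnitine from blood through Slc10a, Slco and Slc22a carriers of the sinusoidal membrane, and secrete bile salts, phospholipid, cholesterol and conjugates into bile through ABC transporters of the canalicular membrane. Other ABC transporters return conjugates and cholesterol to blood, or work in mitochondria and lysosomes. Nuclear receptors for bile acids, oxysterols, fatty acids and drugs are known to control many of these genes in liver.

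Total counts were between 30603080 and 43434139 per library, of which the 90 genes took 0.486% to 0.601%. A gene was tested when it had more than 1 CPM, the count scaled to the library total, in at least 1 library, and 58 of the 90 genes were. The other 32 stayed at or under 0.978 CPM in every library and together held 0.064% of all transporter counts, and 4 of them (Slco6c1, Slco6d1, Abca16 and Abcb5) had no count in any library. Nampt itself (chromosome 12, plus strand, 32820335 to 32853369, GRCm38) averaged 13.0 ± 1.47 CPM (SD, n = 5) in the NAMPT LKO livers against 91.1 ± 41.7 CPM (SD, n = 3) in WT Fasting ones, with no overlap (log2 fold change -2.81, adjusted p = 0.00102 with edgeR's quasi-likelihood test and Benjamini-Hochberg adjustment). Hepatocyte markers summed to between 59030 and 105700 CPM in every liver, whereas pancreas and white fat markers summed to at most 0.321 CPM. NAMPT LKO mouse 5 stood apart, with 21.1% of its counts on the mitochondrial genome against 7.41% to 12.9% in the other livers. In whole liver, fewer cells of a type and less RNA per cell cannot be told apart. The p-values weigh a difference between groups against the spread between these mice, estimated over all groups together.

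Levels between genes were compared per length, as deposited RPKM (CPM per kilobase of exon). Slc10a1, the sodium-dependent bile salt carrier, was highest with a mean of 385 RPKM over the 10 livers (339.8 to 415.2), and its range lay above that of every other transporter. Slco1b2, an uptake carrier of bilirubin and drugs, followed with 172 RPKM (130.4 to 237.1), and Abcb4, which moves phosphatidylcholine into bile, had 118 RPKM (75.8 to 157.6). The ranges of Slco1b2 and Abcb4 overlapped, as did those of every later pair of neighbours in the order of mean level. Abcc3 (61.8 RPKM), Abcc2 (60.4 RPKM), Slco1a1 (50.1 RPKM), Abcb11 (46.4 RPKM), Slc22a18 (42.4 RPKM) and Abca6 (41.2 RPKM) came next. In all, 4 transporters had a mean of at least 100 RPKM, 17 lay between 10 and 100, 19 between 1 and 10 and 18 under 1 RPKM. The 10 genes with the most reads held 74.9% of the transporter counts. All 11 sinusoidal uptake carriers, 9 canalicular exporters, 8 exporters of other plasma membranes and 5 organelle ABC proteins of the role lists were tested, but 8 of 15 Abca lipid transporters other than Abca1 and 17 of 42 remaining carriers. The role lists were drawn up with earlier results of these data known, so shares called within a list are description and no test.

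**Figure D1:**
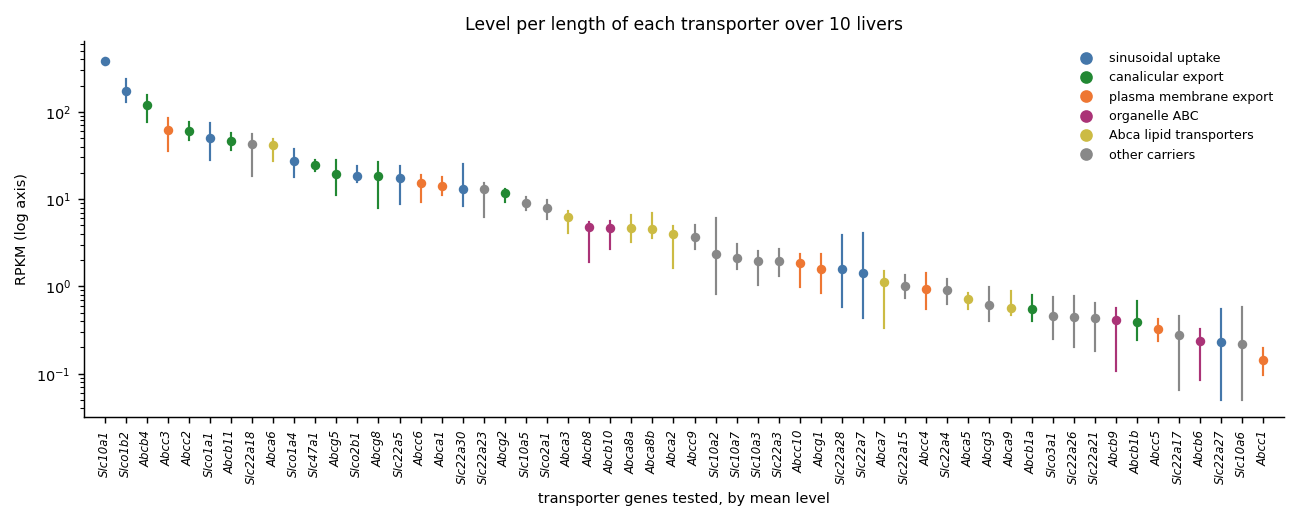
Mean level (point) and range over the 10 livers (line) of 56 tested transporters in RPKM on a log axis, ordered by mean and coloured by role. Slc10a1 at 385 RPKM lies above all others, and 18 genes lie under 1 RPKM.

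Feeding state separated a small group of transporters, among them the phospholipid exporter Abcb4, the sterol exporter subunit Abcg8 and the carnitine carrier Slc22a5. In WT Fasting vs. WT Refed livers, 8 of 58 transporters (13.8%) were called at an adjusted p at or under 0.05, where 7.04% of all 13444 genes tested were. Abcb4, Abcg8, Slc22a5, Slc22a21 and Abca6 rose (2.68% of all genes were called higher), and Slc22a30, Slc22a28 and Slc10a2 fell (4.36% were called lower). Of these, Slc22a21 passed the filter on low counts only through fasting livers. The groups did not overlap in 32 of 58 transporters (55.2%), against 49.7% of all genes. The median log2 fold change was 0.10 over the 58 transporters and 0.04 over all genes. Markers of Kupffer cells summed to 214.0 to 410.4 CPM in the WT Fasting livers against 167.2 to 194.9 CPM in the WT Refed ones (6 of 6 higher), those of liver endothelium to 207.1 to 225.0 against 186.0 to 186.8 CPM (5 higher) and those of stellate cells to 193.2 to 243.6 against 187.7 to 189.4 CPM (5 higher). None of these markers was called and none of the sums overlapped, and their part in the transporter values was not tested. These counts of transporters rest on the 2 WT Refed mice. With WT Refed mouse 1 left out, Slc22a30 alone was still called, and with WT Refed mouse 2 left out no transporter was, in fits where the lone refed library is assumed to vary like the other groups. Without WT Fasting mouse 1 there were 5 calls, with Abca6, Slc22a28 and Slc22a5 lost. Without WT Fasting mouse 2 there were also 5, with Abca6, Slc10a2 and Slc22a21 lost. Without NAMPT LKO mouse 5, whose library shares the estimate of spread, there were 15. With libraries scaled by their total count alone, 4 transporters were called higher and 4 lower, where Slc22a5 was lost and Slc10a7 was called lower.

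The canalicular exporters Abcb4 and Abcg8 were among the transporters that rose. Abcb4 lies on the plus strand of chromosome 5 from 8893721 to 8959225, beside Abcb1a and Abcb1b. Its level was 316 and 296 CPM in the WT Refed livers, 631, 481 and 458 CPM in the WT Fasting livers, and 554, 581, 496, 488 and 529 CPM in the NAMPT LKO Fasting livers, each scaled by TMM factors, as are all CPM values of single genes given here. Both refed livers lay below all 8 fasting livers. Abcb4 rose 1.71-fold in WT Fasting vs. WT Refed livers, or by 0.77 on the log2 scale (standard error 0.16, adjusted p = 0.0162 with edgeR's quasi-likelihood test and Benjamini-Hochberg adjustment, as are all adjusted p given here). The neighbouring Abcb1a and Abcb1b, multidrug exporters that share 22.5% and 12.8% of their 50-base stretches with other transcripts, stayed at or under 4.28 CPM and were not called.

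Abcg8 and Abcg5 encode the subunits of the canalicular cholesterol and plant sterol exporter, which works as a heterodimer. They lie head to head on chromosome 17, Abcg5 on the minus strand from 84658234 to 84683011 and Abcg8 on the plus strand from 84676302 to 84700333 in the files' annotation, and 82 bases of their exons overlap on opposite strands, so reads there cannot be assigned without strand. Abcg8 was at 30.2 and 28.3 CPM in the WT Refed livers, 79.4, 82.6 and 77.6 CPM in the WT Fasting livers, and 67.9, 78.1, 95.9, 97.4 and 45.6 CPM in the NAMPT LKO Fasting livers. Every fasting liver lay above both refed livers, with NAMPT LKO mouse 5 the lowest of them. Abcg8 rose 2.73-fold in WT Fasting vs. WT Refed livers, or by 1.45 on the log2 scale (standard error 0.27, adjusted p = 0.0105). Abcg5 was at 31.1 and 33.4 CPM in the WT Refed, 75.4, 50.9 and 45.0 CPM in the WT Fasting and 60.6, 60.1, 57.6, 72.6 and 35.9 CPM in the NAMPT LKO Fasting livers. These groups did not overlap either, but Abcg5 was not called (log2 fold change 0.82, 95% interval 0.22 to 1.43, adjusted p = 0.102), and it was called with DESeq2, with limma's voomWithQualityWeights and without NAMPT LKO mouse 5. Per length, Abcg8 stood at 0.613 and 0.703 of Abcg5 in the WT Refed livers and between 0.762 and 1.25 of it in the WT Fasting livers, a ratio given without a test.

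RefSeq (GRCm38.p6) places an Abcg8 start at 84683121 and the Abcg5 start at 84683011, with 109 bases between them. The bases between these starts, chr17:84683012-84683120 on the plus strand, are shown because they separate the starts of both subunits, and the capitals mark TTTATA, the reverse complement of the TATA box letters TATAAA. In the files' annotation the same bases lie inside Abcg8, which starts further upstream there.

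between Abcg5 and Abcg8 starts: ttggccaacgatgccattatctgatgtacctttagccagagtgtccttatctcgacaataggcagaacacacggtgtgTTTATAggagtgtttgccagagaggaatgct

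The other canalicular exporters gave no call. Abcc2, which secretes conjugated bilirubin and glutathione conjugates, was at 433 and 391 CPM in the WT Refed, 636, 501 and 482 CPM in the WT Fasting and 521, 567, 539, 556 and 524 CPM in the NAMPT LKO Fasting livers. Its groups did not overlap between refed and fasting livers (log2 fold change 0.39 in WT Fasting vs. WT Refed, 95% interval 0.08 to 0.70, adjusted p = 0.130). Abcb11, the bile salt export pump, was at 219 and 284 CPM in the WT Refed, 209, 242 and 223 CPM in the WT Fasting and 231, 216, 265, 269 and 224 CPM in the NAMPT LKO Fasting livers. Its 3 groups overlapped (log2 fold change -0.16 in WT Fasting vs. WT Refed, 95% interval -0.50 to 0.17, adjusted p = 0.570). Slc47a1, a cation and proton exchanger (0.11), and Abcg2, an exporter of urate and sulfated compounds (-0.06), had log2 fold changes nearer to 0. Of the 9 canalicular exporters, 2 were called (22.2%, against 7.04% of all genes) and 7 had a positive log2 fold change, as had 7209 of all 13444 genes, with a median of 0.39.

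Among the sinusoidal uptake carriers 1 rose, 2 fell and 8 were not called (27.3% called, against 7.04% of all genes). The 2 that fell, Slc22a30 and Slc22a28, have coding sequences 98.8% identical, and whether their calls are independent was not tested. Slc22a5, the main carnitine carrier of liver, lies on the minus strand of chromosome 11 from 53864542 to 53891660. Slc22a5 was at 33.4 and 26.1 CPM in the WT Refed, 72.7, 56.0 and 53.0 CPM in the WT Fasting and 65.2, 63.6, 62.9, 61.0 and 41.0 CPM in the NAMPT LKO Fasting livers. Both refed livers lay below all fasting livers. It rose 2.03-fold in WT Fasting vs. WT Refed livers, or by 1.02 on the log2 scale (standard error 0.22, adjusted p = 0.0188). Slc22a5 was no longer called with scaling by total count alone or without WT Fasting mouse 1. Its neighbour Slc22a21, a related carnitine carrier at 53949965 to 53980332 on the same strand, was at 0.685 and 0.636 CPM in the WT Refed, 1.79, 2.02 and 2.19 CPM in the WT Fasting and 2.33, 1.74, 1.79, 1.12 and 1.75 CPM in the NAMPT LKO Fasting livers. Slc22a21 rose with no overlap between refed and fasting livers, by 1.59 on the log2 scale (standard error 0.34, adjusted p = 0.0180). Its level was about 0.0287 of Slc22a5 per length in WT Fasting livers. Slc22a21 passed the filter of 1 CPM only through the fasting livers, where it is high, and it was still called without that filter.

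Slc22a4, the third gene of that cluster and a carrier of ergothioneine, was at 1.87 to 3.13 CPM and was not called (0.18 on the log2 scale). The coding sequences of Slc22a5 and Slc22a21 are 89.6% identical in a global alignment, and 19.1% of the 50-base stretches of the Slc22a5 coding sequence occur in Slc22a21. A stretch that both genes hold is shown because a read from it fits either gene. It lies at chr11:53891444-53891493 in Slc22a5 and at chr11:53979762-53979811 in Slc22a21, both on the minus strand, in the coding part of GENCODE M21 transcripts.

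Slc22a5 and Slc22a21 shared stretch: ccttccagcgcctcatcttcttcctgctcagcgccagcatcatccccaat

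The study's methods count only uniquely aligned reads of 50 bases, so reads from stretches that Slc22a5 and Slc22a21 share would count for neither gene. How many reads each gene lost, which touches their ratio per length, was not tested. Summed, the pair was at 26.8 and 34.1 CPM in the WT Refed livers and between 55.2 and 74.5 CPM in the WT Fasting livers. Upstream of the RefSeq start of Slc22a5, the GC box letters GGGCGG or their reverse complement stood at 2 places within 120 bases, and upstream of Abcb4 at 1 place, marked in capitals. These stretches are shown as the promoters of the called carnitine and phospholipid transporters, at chr11:53891704-53891823 on the minus strand and chr5:8893601-8893720 on the plus strand of GRCm38.p6.

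Slc22a5 upstream: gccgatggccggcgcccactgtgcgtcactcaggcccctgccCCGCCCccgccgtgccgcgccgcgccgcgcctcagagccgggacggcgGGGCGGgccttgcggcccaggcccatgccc
Abcb4 upstream: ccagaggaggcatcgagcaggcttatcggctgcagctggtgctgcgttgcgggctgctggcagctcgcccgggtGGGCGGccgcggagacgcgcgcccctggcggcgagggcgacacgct

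RefSeq windows of 300 bases were matched for 73 of the 90 transporters, 44 of the 58 tested and 6 of the 8 called. GGGCGG on either strand was in 42.3% of the 52 windows of tested transporters and in 35.7% of all 32851 windows. The nuclear receptor half-site letters AGGTCA were in 21.2% and 16.3%, TATAAA in 19.2% and 13.6%, CCAAT in 23.1% and 37.4% and the E-box letters CACGTG in 9.62% and 7.15%. None of the 6 called genes with a window held AGGTCA or CACGTG in it, which says only that these letters are not in these 300 bases.

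Slc22a30 and Slc22a28, carriers of the organic anion transporter subfamily, lie in a run of 8 Slc22a genes on chromosome 19, both on the minus strand, from 8335371 to 8405111 and from 8062209 to 8131982. Slc22a30 was at 73.9 and 82.4 CPM in the WT Refed, 32.9, 44.5 and 29.5 CPM in the WT Fasting and 35.7, 35.9, 28.5, 40.4 and 33.3 CPM in the NAMPT LKO Fasting livers. The refed livers lay above every fasting liver. Slc22a30 fell to 0.456 of its refed level in WT Fasting livers (-1.13 on the log2 scale, standard error 0.18, adjusted p = 0.00514). Slc22a28 was at 7.49 and 6.71 CPM in the WT Refed, 1.94, 3.03 and 2.23 CPM in the WT Fasting and 2.62, 2.40, 1.13, 1.79 and 1.78 CPM in the NAMPT LKO Fasting livers, again without overlap. It fell to 0.337 of its refed level (-1.57 on the log2 scale, standard error 0.32, adjusted p = 0.0158).

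The coding sequences of Slc22a30 and Slc22a28 are 98.8% identical and 50.8% of the 50-base stretches of the Slc22a30 coding sequence occur in Slc22a28, so the division of reads between them is uncertain and their falls are not independent of each other. Their sum was 81.4 and 89.1 CPM in the WT Refed, 31.7 to 47.5 CPM in the WT Fasting and 29.7 to 42.2 CPM in the NAMPT LKO Fasting livers, so the pair taken as 1 gene also had no overlap between refed and fasting livers. The likeness reaches beyond the transcripts: their 300-base windows around the RefSeq starts are 94.1% identical over 306 aligned positions. The bases upstream of both starts are shown for that reason, at chr19:8405106-8405225 for Slc22a30 and chr19:8131983-8132102 for Slc22a28, both on the minus strand of GRCm38.p6. The capitals mark the bases that differ or have no partner in the alignment.

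Slc22a30 upstream: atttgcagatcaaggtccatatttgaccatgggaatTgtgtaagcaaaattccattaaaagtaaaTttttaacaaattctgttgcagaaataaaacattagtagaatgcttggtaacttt
Slc22a28 upstream: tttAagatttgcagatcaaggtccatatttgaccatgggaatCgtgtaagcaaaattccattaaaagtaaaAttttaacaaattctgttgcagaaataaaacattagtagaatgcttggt

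The start of the coding sequence is also the same in both genes over at least 50 bases, at chr19:8404856-8404905 in Slc22a30 and chr19:8131727-8131776 in Slc22a28.

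Slc22a30 and Slc22a28 shared stretch: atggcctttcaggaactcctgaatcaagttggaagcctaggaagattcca

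The most abundant uptake carriers showed no call with feeding state. Slc10a1 was at 628 and 658 CPM in the WT Refed, 679, 694 and 591 CPM in the WT Fasting and 680, 606, 605, 568 and 748 CPM in the NAMPT LKO Fasting livers. Its groups overlapped, and the 95% interval of its log2 fold change in WT Fasting vs. WT Refed livers ran from -0.29 to 0.34. Slco1b2, with a log2 fold change of 0.08, also lay near 0. Slco1a1, a male-predominant organic anion carrier of mouse liver, was at 372 and 367 CPM in the WT Refed but 326, 205 and 144 CPM in the WT Fasting and 315, 187, 303, 169 and 238 CPM in the NAMPT LKO Fasting livers. Both refed livers lay above all fasting livers, and the difference was not called (log2 fold change -0.72, 95% interval -1.44 to 0.01, adjusted p = 0.229). Slco1a4, a neighbouring carrier known to be inducible by drugs, was at 84.5 and 84.0 CPM in the WT Refed and 143, 151 and 116 CPM in the WT Fasting livers (0.70, adjusted p = 0.208). Slco2b1, another organic anion carrier, was at 114 and 127 CPM in the WT Refed, 97.4, 103 and 103 CPM in the WT Fasting and 89.96 to 105 CPM in the NAMPT LKO Fasting livers, without overlap between refed and fasting livers (-0.26, unadjusted p = 0.0381, adjusted p = 0.193). The coding sequences of Slco1a1 and Slco1a4 are 86.8% identical.

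**Figure D2:**
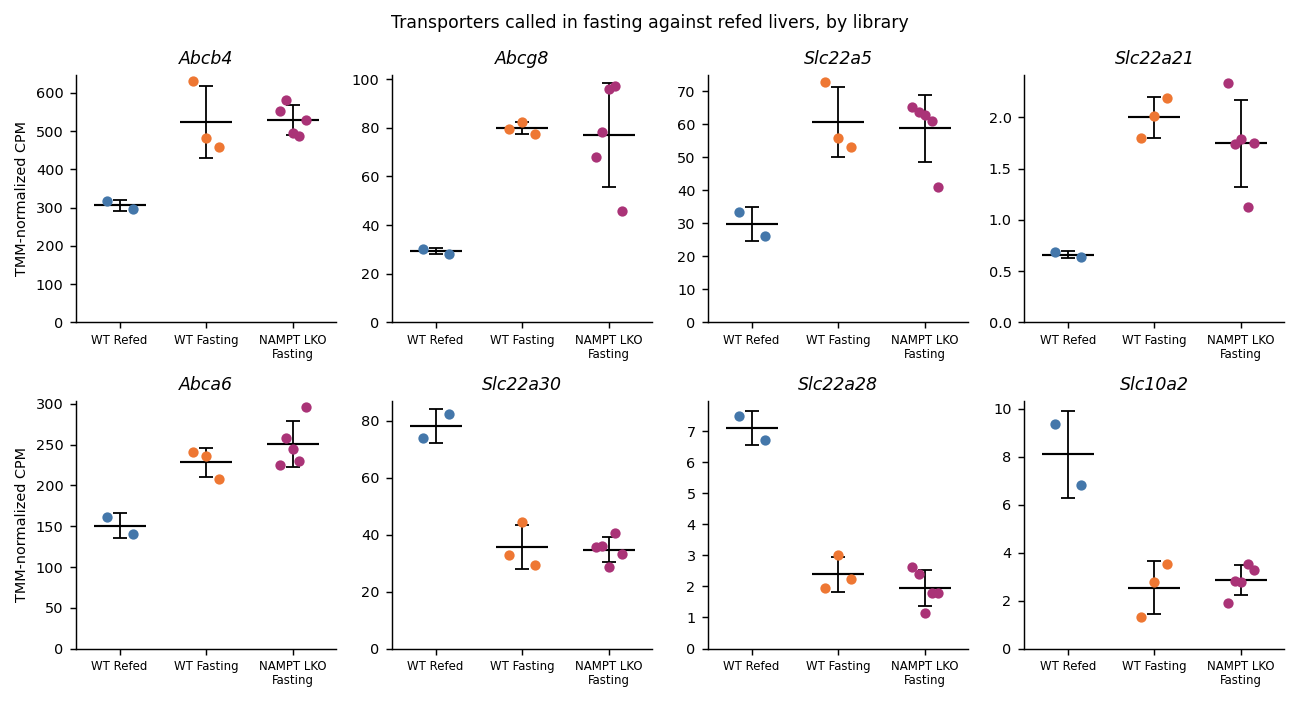
TMM-normalized CPM of the 8 called transporters in each library, with points for mice, a horizontal line for the group mean and bars for the SD (n = 2 WT Refed, 3 WT Fasting and 5 NAMPT LKO Fasting), each axis starting at 0. In every panel the WT Refed points lie wholly above or wholly below the fasting points of both genotypes.

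Slc10a2, the apical sodium-dependent bile salt carrier known from ileum and bile duct epithelium, fell as well. It lies on the minus strand of chromosome 8 from 5085623 to 5105232. Its level was 9.37 and 6.82 CPM in the WT Refed, 1.32, 2.78 and 3.53 CPM in the WT Fasting and 1.92, 2.81, 2.78, 3.50 and 3.26 CPM in the NAMPT LKO Fasting livers. Both refed livers lay above all fasting livers, and the change was -1.67 on the log2 scale (standard error 0.36, adjusted p = 0.0199). Bile duct markers (Krt7, Krt19, Epcam, Sox9, Spp1 and Cftr) summed to 19.8 to 22.1 CPM in the WT Refed and 15.02 to 21.97 CPM in the WT Fasting livers, with none called. They summed to 33.9 to 53.8 CPM in the NAMPT LKO Fasting livers, and their part in the Slc10a2 values was not tested. Abca6, an Abca lipid transporter on the minus strand of chromosome 11 from 110176820 to 110251776, was at 162 and 140 CPM in the WT Refed, 241, 236 and 208 CPM in the WT Fasting and 225, 259, 244, 230.0 and 296 CPM in the NAMPT LKO Fasting livers. It rose 1.51-fold (0.60 on the log2 scale, standard error 0.15, adjusted p = 0.0350), though the call was lost with edgeR's exact test and without the filter on low counts. Abca6 was also not called without NAMPT LKO mouse 2, WT Fasting mouse 1 or WT Fasting mouse 2. Its cluster neighbours Abca5, Abca8a, Abca8b and Abca9 were not called (-0.11 to 0.17).

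Exporters of the sinusoidal and other plasma membranes gave no call, although 7 of 8 had a positive log2 fold change (median 0.45) and 7 of 8 had groups without overlap. Over all 13444 genes, 7209 had a positive log2 fold change and 49.7% had groups without overlap. Abcc3, which returns conjugates to blood, was at 296 and 288 CPM in the WT Refed, 480, 367 and 366 CPM in the WT Fasting and 409, 357, 329, 374 and 236 CPM in the NAMPT LKO Fasting livers. The refed and WT Fasting livers did not overlap, but NAMPT LKO mouse 5 lay below both refed livers (log2 fold change 0.47 in WT Fasting vs. WT Refed, adjusted p = 0.225). Abcc6, known for ATP release from liver, had 0.43 (adjusted p = 0.186), and the low-level Abcc1, Abcc4, Abcc5 and Abcc10 lay between 0.37 and 0.61. Abcg1, a cholesterol exporter at 4.02 to 9.31 CPM, had 0.50 (adjusted p = 0.374). Abca1, which loads cholesterol onto apolipoprotein A-I, went the other way at 167 and 177 CPM in the WT Refed and 127, 160 and 126 CPM in the WT Fasting livers (-0.32, adjusted p = 0.165). All 8 tested Abcc genes had a positive log2 fold change in this comparison, with 0 called at an adjusted p at or under 0.05 with edgeR, 3 at an unadjusted p under 0.05 and 4 (Abcc2, Abcc3, Abcc6 and Abcc10) called with limma's voomWithQualityWeights. Over all genes 22.3% had an unadjusted p under 0.05 and voomWithQualityWeights called 24.8%. The organelle proteins Abcb6, Abcb8, Abcb9 and Abcb10, of mitochondria and lysosomes, lay between -0.18 and 0.22, with none called. Of the carriers outside the role lists, those with an unadjusted p under 0.05 that were not called were Slc10a7, known from calcium handling, at 9.70 and 10.8 CPM in the WT Refed and 6.52 to 7.46 CPM in the WT Fasting livers (-0.55, adjusted p = 0.0841), and Slc22a3, an organic cation carrier (0.72, adjusted p = 0.116), 420 bases of whose exons overlap Plg on the opposite strand.

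**Figure D3:**
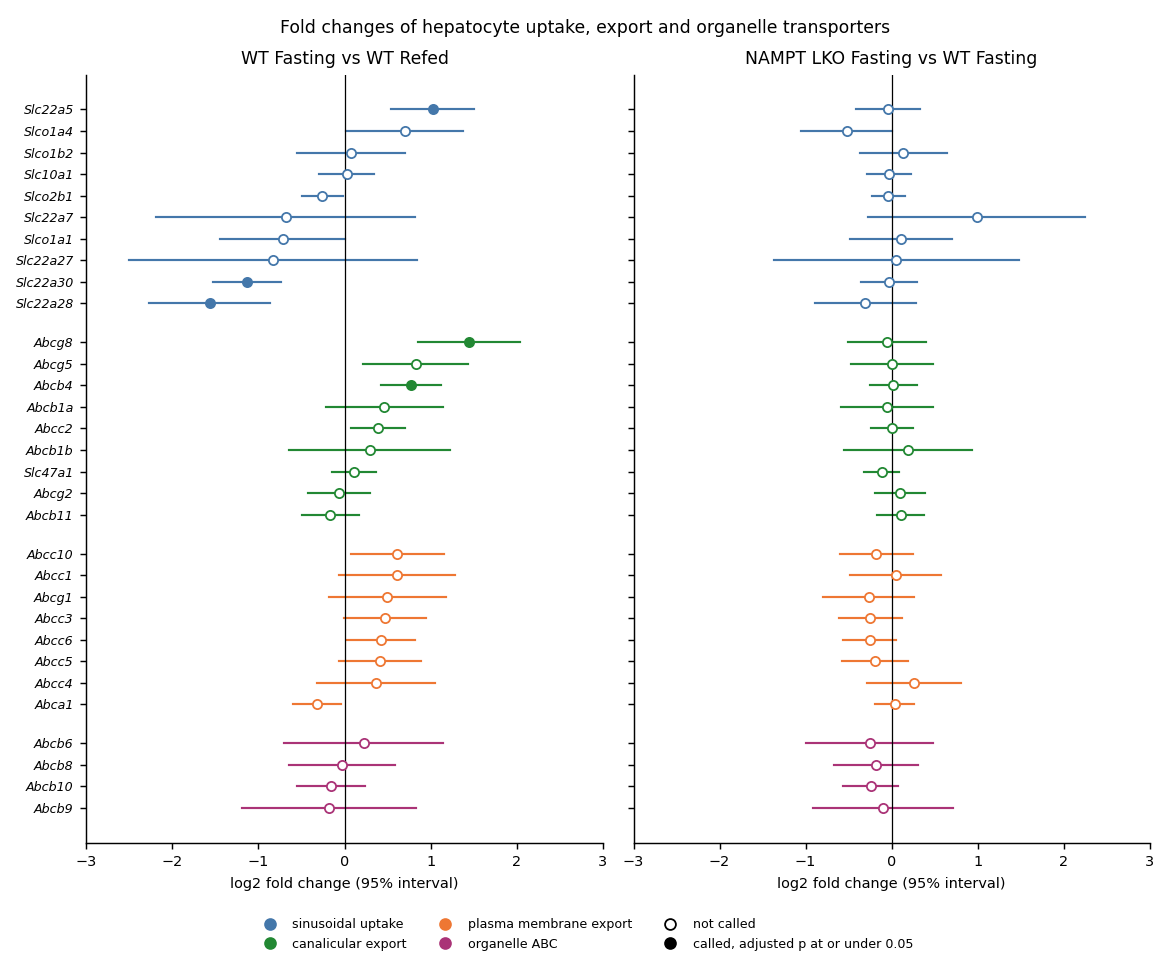
Log2 fold change (point) with its 95% interval (line) of 31 tested uptake, export and organelle transporters, on the left for WT Fasting vs. WT Refed and on the right for NAMPT LKO Fasting vs. WT Fasting mice, filled where called. On the left 5 points are filled (Slc22a5, Slc22a30, Slc22a28, Abcg8 and Abcb4), and on the right none is.

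Loss of hepatocyte Nampt was accompanied by no called transporter. Between the genotypes, both fasting, 0 of 58 transporters were called with edgeR's quasi-likelihood test, against 1 gene (0.00744%) of 13444, which was Nampt. DESeq2 also called 0 transporters, against 21 genes (0.156%) of 13444, and limma's voomWithQualityWeights 0, against 1 gene (0.00744%). At an unadjusted p under 0.05 there were 3 of 58 (5.17%), against 6.03% of all genes. The groups did not overlap in 1 of 58, against 3.99% of all genes, and the median log2 fold change was -0.03. The 95% interval of the log2 fold change lay within 1 of 0 in 52 transporters and within 0.5 of 0 in 17. For the 21 transporters with a mean of at least 10 RPKM the interval reached at most 0.59 to either side of the estimate. The 8 transporters called between WT Fasting and WT Refed livers had log2 fold changes between -0.30 (Slc22a28) and 0.17 (Slc10a2) here. For Abcb4 the interval was -0.26 to 0.29, for Abcg8 -0.50 to 0.40, for Slc22a5 -0.42 to 0.33 and for Slc22a30 -0.36 to 0.29. For Abca6 it was -0.12 to 0.39. Wider intervals were those of Slc22a28 (-0.89 to 0.28), Slc22a21 (-0.74 to 0.35) and Slc10a2 (-0.50 to 0.83).

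Slc22a18, an Slc22a carrier with a high level in liver, had 1 of the small unadjusted p-values. It was at 78.4, 90.4 and 91.7 CPM in the WT Fasting and 70.8, 60.4, 57.9, 85.7 and 37.5 CPM in the NAMPT LKO Fasting livers. The groups overlapped (log2 fold change -0.47, unadjusted p = 0.0400, adjusted p = 0.827). Slc22a26, a low-level organic anion carrier, was at 0.581 to 1.16 CPM in the WT Fasting and 0.959 to 2.23 CPM in the NAMPT LKO Fasting livers (0.85, unadjusted p = 0.0440, adjusted p = 0.827).

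Slco1a4 was at 143, 151 and 116 CPM in the WT Fasting livers but 101, 68.7, 75.6 and 75.1 CPM in NAMPT LKO mice 1 to 4, near the 84.5 and 84.0 CPM of the WT Refed livers, and at 155 CPM in NAMPT LKO mouse 5. With all libraries the log2 fold change was -0.52 (95% interval -1.05 to 0.00, unadjusted p = 0.0504, adjusted p = 0.828). Without NAMPT LKO mouse 5 it was -0.77 (standard error 0.14, unadjusted p = 0.000223, adjusted p = 0.324), and the groups did not overlap. Correcting each library for its GC trend gave -0.65 (adjusted p = 0.608) and limma's voomWithQualityWeights -0.86 (adjusted p = 0.141), so neither called it. Slc22a7, an organic anion carrier, spread from 0.863 to 7.88 CPM over the NAMPT LKO livers (0.99, 95% interval -0.27 to 2.25). Bile duct markers were higher in every NAMPT LKO liver than in every WT Fasting liver (33.9 to 53.8 against 15.02 to 21.97 CPM summed, 5 of 5 tested markers higher and none called). Of 6 markers each, 0 were higher for Kupffer cells, 5 for liver endothelium, 5 for stellate cells and 1 for hepatocytes. None of these was called, and the sums of these other lists overlapped between the genotypes. The part of any of these cell types in the transporter values was not tested.

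**Figure D4:**
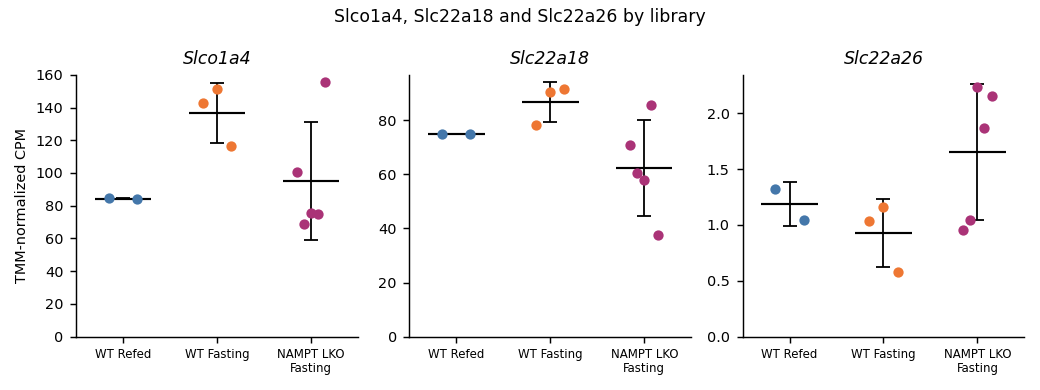
TMM-normalized CPM in each library of Slco1a4, Slc22a18 and Slc22a26, drawn as points for mice, lines for means and bars for the SD, from 0. Of Slco1a4, 4 of the 5 NAMPT LKO points lie at 68.7 to 101 CPM, with the fifth at 155 CPM.

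The transporters of NAMPT LKO mouse 5 deviated from those of the other NAMPT LKO livers along with their base composition. Against the mean of the other 4 NAMPT LKO livers, some GC-poor genes such as Slco1a4 (40.3% GC, log2 deviation 0.97) and Slco1b2 (38.6% GC, 0.83) stood high. Slco1a1 (38.5% GC, 0.024), Slc22a30 (40.0% GC, -0.065) and Abca5 (39.8% GC, -0.10), also GC-poor, did not. GC-rich genes such as Abca7 (58.9% GC, -1.40), Abcb9 (59.4% GC, -1.33) and Abcb8 (56.7% GC, -1.09) stood low. Across the 58 genes Spearman's rho between GC content and deviation was -0.80 in this library. It was 0.22 to 0.43 in the other 4, each set against a mean that includes mouse 5. Their values are therefore not free of mouse 5. Over all tested genes it was -0.56 in mouse 5 and 0.14 to 0.38 in the others. These points share 1 library and are no replicates. The median size of the deviation was 0.41 in mouse 5 and 0.14 to 0.23 in the others, whose reference mean again includes mouse 5. The levels of Abcc3, Slc22a5, Abcg5 and Abcg8 in this mouse were also the lowest of their group.

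**Figure D5:**
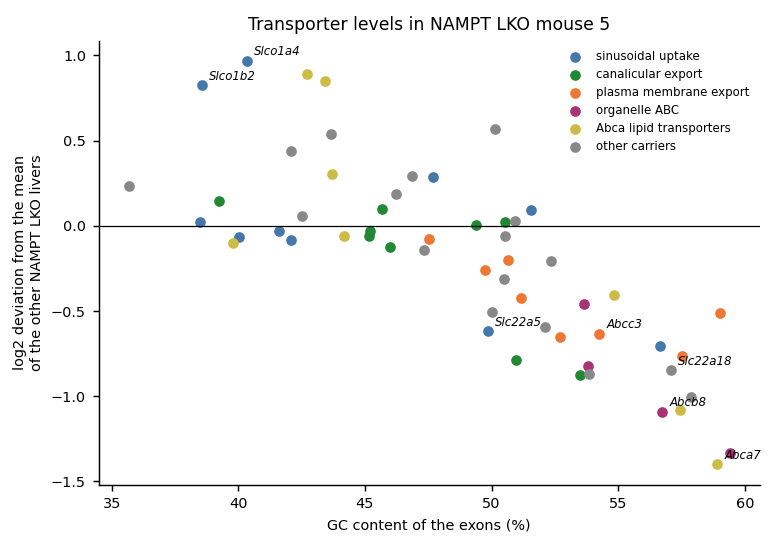
Log2 deviation of 56 tested transporters in NAMPT LKO mouse 5 from the mean of the other 4 NAMPT LKO livers against the GC content of its exons in percent, coloured by role. Deviations run from 0.97 (Slco1a4) to -1.40 (Abca7) and fall with GC content (rho -0.80 over all 58 tested).

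NAMPT LKO Fasting livers, set against the same WT Refed livers, had the same 8 transporters called, in the same directions. Without WT Refed mouse 1, and likewise without mouse 2, 2 of these calls (Slc22a30 and Slc22a28) were left. In this comparison 8 of 58 were called (13.8%), against 11.2% of all genes, with 5 higher (4.65% of all genes) and 3 lower (6.58%). Of the bile duct markers 2 were called here, with 5 of 5 tested higher, and of the endothelial markers 1, with 6 of 6 higher, and their part in these values was not tested. It shares its controls with WT Fasting vs. WT Refed and differs from them in both genotype and feeding, so the values are given side by side without a test of their likeness. The log2 fold change against WT Refed was 0.79 in NAMPT LKO and 0.77 in WT Fasting livers for Abcb4, 1.396 and 1.45 for Abcg8, 0.98 and 1.02 for Slc22a5, and 0.73 and 0.60 for Abca6. For Slc22a21 it was 1.396 and 1.59, for Slc22a30 -1.17 and -1.13, for Slc22a28 -1.87 and -1.57, and for Slc10a2 -1.50 and -1.67. Adjusted p-values in NAMPT LKO Fasting vs. WT Refed livers ran from 0.00169 (Slc22a30) to 0.0184 (Slc22a21). Abcg5 (0.83, adjusted p = 0.0630) and Slc10a7 (-0.53, adjusted p = 0.0557) again fell short of the threshold, as did Abcc2 (0.39, adjusted p = 0.0793).

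Of 28 regulators and partners of these transporters, 26 were tested, and Slc51a and Slc51b, which encode the basolateral bile salt exporter, were at or under 0.611 CPM. In WT Fasting vs. WT Refed livers 2 of 26 were called (7.69%), close to the 7.04% of all genes. Npc1, which moves cholesterol out of lysosomes, was at 86.0 and 68.3 CPM in the WT Refed and 194, 158 and 144 CPM in the WT Fasting livers and rose (1.10 on the log2 scale, adjusted p = 0.00454). Nr1i3, the constitutive androstane receptor, was at 109 and 89.4 CPM in the WT Refed and 185, 174 and 131 CPM in the WT Fasting livers and also rose (0.72, adjusted p = 0.0392). Between the fasting genotypes none of the 26 was called, and Nr1i3 had -0.41 (adjusted p = 0.798). Against WT Refed livers, NAMPT LKO Fasting livers had Npc1, Ppara and Cyp8b1 higher and Nr1h3 and Atp8b1 lower, 5 of 26 (19.2%), against 11.2% of all genes. The bile acid receptor Nr1h4 was at 121 to 165 CPM in all 10 livers and was not called in any comparison.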

How the data were processed

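Liver RNA of 10 mice was sequenced by the authors as short single reads of polyadenylated RNA. The submitters' processing notes name STAR 2.5.1a, featureCounts 1.4.6-p5 and the build GRCm38, whereas the study's methods give other versions. By those methods only uniquely aligned, unambiguous reads were counted. Whether counting used strand is not given in the sources used here. The authors deposited a count of reads per gene, a CPM value (the count scaled to the library total) and an RPKM value (CPM per kilobase of exon). The deposited CPM and RPKM follow from the counts without further normalization. No column of other samples was left unused (0).

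Counts were tested here with edgeR 4.0.16 in R 4.3.3, by the quasi-likelihood test with TMM factors in a single fit of all 10 libraries, with 1 coefficient for each group and Benjamini-Hochberg adjustment over the 13444 genes above 1 CPM in at least 1 library, rRNA genes left out. The members and lists were chosen with earlier results of these data known. Genes are named when called in any comparison, when tested members of the uptake, canalicular, plasma membrane or organelle lists, when among the 3 smallest p between the fasting genotypes or the 3 highest mean RPKM, and others only where a result turns on them, chosen after their values were seen. Groups and replicate numbers come from the sample labels. Same-numbered fasting mice of the 2 genotypes correlated at 0.12, 0.06 and 0.13 in their deviations from the group means, and nothing ties a number to a shared litter or day. Alternatives were DESeq2 1.42.0, voomWithQualityWeights of limma 3.58.1, edgeR's exact test, other factors, filters and thresholds, a GC trend removed from each library (loess span 0.5), fits of 2 groups at a time, leaving out single libraries, and a replicate block. The fits were first tested on simulated data with known changes. Shared 50-base stretches and coding sequences come from GENCODE M21 transcripts and promoter windows from RefSeq. Values of 2 transporters that entered the counts and fits are not reported here.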

Additional observations from a re-analysis of the deposited data

Results flagged for a closer look

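The 5 NAMPT LKO Fasting livers were examined for a mouse far from the rest in 40 values, the levels of 38 named transporters and the shares of counts on transporters and on the mitochondrial genome. The measure was the gap between the extreme mouse and the next one, divided by the group's whole range, with a limit of 0.71 for 5 samples. Chance passes it in about 1 of 20 independent groups, or 2 of 40. These 40 values come from the same 5 livers and are not independent, so the count passed is description and no test. It was passed by 5 values, 4 of them through mouse 5. In mouse 5 the mitochondrial share was 21.1% against 10.4% to 12.9% in the others (gap 0.770), and the share on transporters was 0.486% against 0.534% to 0.540% (gap 0.875). Slc22a5 was at 41.0 CPM in mouse 5 against 61.0 to 65.2 CPM (gap 0.826), and Abcb8, a mitochondrial ABC protein, was at 10.8 CPM against 22.1 to 25.7 CPM (gap 0.762). Abcg2 was at 44.9 CPM in mouse 3 against 62.9 to 65.0 CPM in the others (gap 0.894).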

How the results depend on the processing

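The 8 calls in WT Fasting vs. WT Refed livers (7.04% of all genes called) became 18 with limma's voomWithQualityWeights (24.8%) and ranged from 0 without WT Refed mouse 2 (0.79%) to 15 without NAMPT LKO mouse 5 (16.7%). The 8 calls in NAMPT LKO Fasting vs. WT Refed livers (11.2%) became 13 with DESeq2 (16.7%), 20 with voomWithQualityWeights (31.8%) and 5 when a log2 fold change of at least 1 was also asked for (3.65%), and ranged from 2 without a WT Refed mouse (1.54% and 2.4%) to 13 without NAMPT LKO mouse 5 (21.2%). In each case but the libraries left out, the cause was not tested. All 8 genes were called in both comparisons with DESeq2, voomWithQualityWeights, RLE factors, filterByExpr, a removed GC trend and fits of the 2 groups compared. Scaling by total count alone gave 5 higher and 5 lower in NAMPT LKO Fasting vs. WT Refed livers, against 5 and 3. Between the fasting genotypes, 0 transporters were called under every alternative run. With the replicate block over the libraries numbered 1 to 3 of both genotypes, 0 of 13231 genes were called, as without the block. Not even Nampt was called in these fits, so they cannot show whether the block matters for the transporters. The block was run for this comparison only. No log2 fold change of a called transporter changed sign under any alternative. With 2 refed mice the comparisons against them have little power against a difference within the spread. Several transporters under 1 RPKM have wide intervals, such as Slc10a6 (-1.255 to 2.015 between the fasting genotypes), but not all, as in Abca5 (-0.108 to 0.511).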

Other observations

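Of the Slc10a family outside the bile salt carriers, Slc10a5 had a mean level of 9.05 RPKM, above the median of 4.27 RPKM over the tested transporters, whereas Slc10a3, Slc10a6 and Slc10a7 had 0.222 to 2.12 RPKM. Slco2a1, the prostaglandin carrier, was at 80.8 to 126 CPM over the 10 livers and Abcc9, a subunit of potassium channels, at 19.8 to 37.4 CPM, neither called in any comparison. The transporters lie close together in the genome: 46 of 90 fell into 14 clusters with at most 300000 bases between neighbours. Within the cluster of Slc22a5, Slc22a21 and Slc22a4 the first 2 rose in fasting WT livers and Slc22a4 was not called. In the run of 8 Slc22a genes on chromosome 19, 4 were tested, of which Slc22a28 and Slc22a30 fell. Slc22a26 (log2 fold change -0.36) and Slc22a27 (-0.83) were not called. Slc22a27 was at 1.13 and 0.341 CPM in the WT Refed and 0.246 to 0.581 CPM in the WT Fasting livers, with overlap. It was above 1 CPM only in WT Refed mouse 1. The interval of its log2 fold change ran from -2.50 to 0.85, so the value does not show a fall. Slc22a27 shares 29.9% of its 50-base stretches with other transcripts.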
